A study of Mus musculus with 6 samples.

Results

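The cell adhesion genes described here are 10 members of the immunoglobulin superfamily chosen by name, namely Nrcam, Ncam1, Ncam2, L1cam, Chl1, Nfasc, Alcam, Jam3, Cadm1 and Cadm2, out of 41128 features listed for each library. All 10 were found in the tables and all 10 passed the filter on low counts, Chl1 only through its Prox1 knockout libraries. RNA sequencing had been done on 3 libraries of Prox1 conditional knockout (cKO) lenses and 3 libraries of wild type lenses from mouse embryos at E13.5. The knockout lenses carried the genotype Prox1 f/f MLR10Cre+, which means floxed alleles of the homeodomain factor gene Prox1 and a Cre transgene whose modified alpha A crystallin promoter is active in lens epithelium and fibres. The controls were wild type lenses. The labels give the strain as C57Bl/6 for both groups, and the design text writes it C57Bl/6 <har> for the controls. Each library was a pool of 30 lenses labelled as a biological replicate, and there was no group with Cre alone or floxed alleles alone, so Cre, the floxed line and the loss of Prox1 cannot be told apart as sources of a difference. Nothing in the labels says whether litters were shared between pools, and p-values cover the spread from pool to pool.

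Immunoglobulin-type adhesion molecules hold cells together through extracellular domains that bind the same or a related molecule on the next cell, and their short cytoplasmic tails bind adaptors of the membrane skeleton. The L1 family, which is Nrcam, L1cam, Chl1 and Nfasc, binds ankyrins, the NCAM family can carry long chains of polysialic acid, and the JAM and CADM families bind scaffolds with PDZ domains. In the lens, fibre cells elongate and pack into ordered rows, and mice that lack Nrcam or ankyrin B have disordered fibres and cataract. In humans, mutations of JAM3 cause a syndrome with congenital cataract.

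The promoter windows of 4 of the genes are shown because these genes moved in opposite directions in the comparison that follows, Nrcam and Nfasc downward and Alcam and Cadm2 upward. Each window runs from 250 bases before to 50 bases after a RefSeq start on GRCm38.p6, and capitals mark the GC box GGGCGG or its reverse complement CCGCCC.
Nrcam chr12:44328635-44328934 (plus strand): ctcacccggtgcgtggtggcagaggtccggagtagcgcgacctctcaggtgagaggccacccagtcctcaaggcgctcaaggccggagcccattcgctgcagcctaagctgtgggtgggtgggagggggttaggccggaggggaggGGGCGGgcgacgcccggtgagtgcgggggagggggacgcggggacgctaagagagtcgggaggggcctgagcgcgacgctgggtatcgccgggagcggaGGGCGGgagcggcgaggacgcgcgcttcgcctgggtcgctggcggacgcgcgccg
Nfasc chr1:132707277-132707576 (minus strand): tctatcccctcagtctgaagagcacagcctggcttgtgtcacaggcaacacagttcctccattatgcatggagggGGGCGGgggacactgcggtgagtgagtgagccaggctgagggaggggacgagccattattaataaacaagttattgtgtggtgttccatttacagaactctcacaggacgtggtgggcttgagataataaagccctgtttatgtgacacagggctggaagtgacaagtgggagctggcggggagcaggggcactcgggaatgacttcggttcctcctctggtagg
Alcam chr16:52453032-52453331 (minus strand): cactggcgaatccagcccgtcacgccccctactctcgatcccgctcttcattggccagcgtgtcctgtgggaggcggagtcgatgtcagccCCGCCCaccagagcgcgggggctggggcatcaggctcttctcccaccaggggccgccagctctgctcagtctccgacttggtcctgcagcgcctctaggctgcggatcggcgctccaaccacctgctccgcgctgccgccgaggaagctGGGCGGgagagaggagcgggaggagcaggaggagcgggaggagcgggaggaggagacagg
Cadm2 chr16:67620859-67621158 (minus strand): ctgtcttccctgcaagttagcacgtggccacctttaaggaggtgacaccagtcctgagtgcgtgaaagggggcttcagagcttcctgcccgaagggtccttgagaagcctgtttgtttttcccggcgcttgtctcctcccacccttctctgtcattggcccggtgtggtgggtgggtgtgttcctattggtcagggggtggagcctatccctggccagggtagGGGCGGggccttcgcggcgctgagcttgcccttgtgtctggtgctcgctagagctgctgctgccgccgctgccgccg
RefSeq windows were found for 7 of the 10 genes, and Nfasc had a further window that is not printed. In GENCODE M21, 5 of 10 Nfasc transcripts hold the first 30 bases from the start in the unprinted window. For the printed Nfasc window it is 2 of 10, and for Nrcam 1 of 17, Alcam 1 of 7 and Cadm2 2 of 6. The windows thus cover the starts of only some annotated transcripts. The Nrcam window was 74.0% G or C with 37 CG dinucleotides, and the Nfasc window 54.3% with 7. The Alcam window was 69.7% G or C with 25 CG dinucleotides, and the Cadm2 window 62.7% with 15. The median over all 32817 windows was 52.7% with 7 CG dinucleotides, so the window of Nfasc lay near the median and the others lay above it. The 7 genes have 9 windows in all, and the motif counts that follow are over these 9, read on both strands. The 2 windows of L1cam overlap and are not separate sequences. GGGCGG was found in each of the 9 windows except the unprinted one of Nfasc and that of Chl1, and 35.6% of all windows held it. Counted by gene, 6 of the 7 had it in at least 1 window. There were 2 copies in the windows of Nrcam, Alcam and Ncam2 and in 1 of L1cam. TGCTGAC (reverse complement GTCAGCA), the core of a Maf recognition element and present in 4.67% of all windows, was found once, in the unprinted Nfasc window, and in none of those printed. CCAAT (reverse complement ATTGG), present in 37.4% of all windows, was found in those of Alcam and Cadm2 and the unprinted one of Nfasc, and in 1 of the L1cam windows. The palindromic E-box CACGTG, present in 7.15%, was found in that of Cadm2. The homeodomain palindrome TAATTA, present in 5.30%, and TATAAA (reverse complement TTTATA), present in 13.6%, gave no match in the 9.

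The libraries held between 9082219 and 28391662 counts in cKO lenses and between 20731491 and 21061582 in wild type lenses. Prox1 itself fell to 695 ± 39.9 CPM in cKO lenses, against 1128 ± 179 CPM in wild type lenses (SD, n = 3 each, log2 -0.70, edgeR adjusted p 0.0074), and was not called with library totals alone (log2 -0.34, edgeR adjusted p 0.0532). Prox1 was counted over the whole gene, and its floxed part was not examined apart. Crystallins took between 2.83% and 3.14% of the counts in cKO lenses and between 13.2% and 22.7% in wild type lenses, the lowest wild type value being that of library 1. Lars2 took between 0.676% and 7.05% of counts in cKO libraries and between 0.878% and 1.74% in wild type libraries. The 13 lens markers tested summed to 22328 to 24823 CPM in cKO lenses and 96985 to 179126 CPM in wild type lenses. By edgeR 11 were called lower (84.6%, against 16.8% of all tested features) and 1 higher (7.69%, against 15.9%), with a median log2 change of -1.14. The part of this shift in the changes of the adhesion genes was not tested. Levels are given in CPM, the count relative to the library total after scaling by TMM factors. A log2 change is cKO over wild type, each with its standard error (SE). A gene is called at a Benjamini-Hochberg adjusted p below 0.05 over the 14271 features tested by edgeR. With library totals alone, without TMM factors, the median log2 change of all tested features was 0.39, against 0.04 with them, so directions of small changes depend on this choice.

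Of the 10 adhesion genes, 3 fell (Nrcam, Nfasc and Jam3), 3 rose (Ncam1, Cadm2 and Alcam) and 4 were not called (Cadm1, L1cam, Ncam2 and Chl1). Among all tested features 32.6% were called, 15.9% higher and 16.8% lower. The 10 genes were chosen with earlier results of these data known. Without Chl1, whose high group alone brought it through the filter, the cKO and wild type libraries did not overlap for 6 of 9, against 50.1% of all tested features, and the median log2 change over the 9 was -0.13. Nrcam had a 7.40-fold decrease, and the other called changes lay between 1.29-fold and 2.22-fold. Nrcam and Nfasc kept their calls whichever library was left out. Each of the other 4 called genes lost its call without wild type library 2, so none of the 10 was called higher then, and 1 was without wild type library 3. Over all tested features, 836 and 952 were called higher in those fits, against 2263 with all 6 libraries. In whole lenses, fewer cells of a type and less RNA per cell cannot be told apart.

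**Figure D1:**
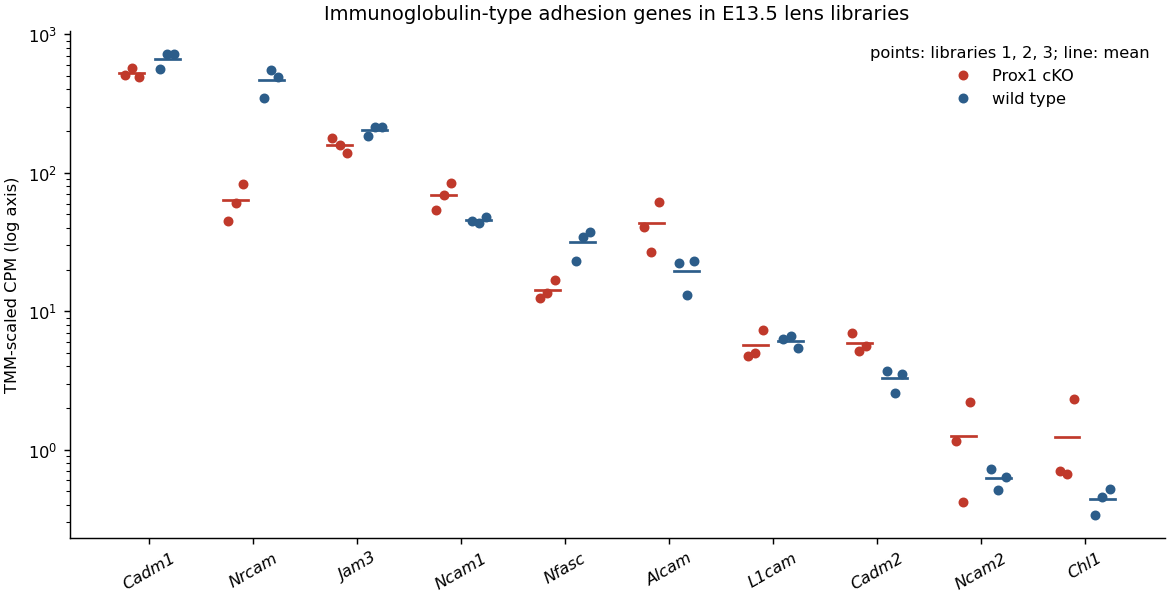
TMM-scaled CPM on a log axis for each of the 10 adhesion genes, with a point for each library and a line at the mean of the 3 Prox1 cKO or 3 wild type libraries. The Nrcam libraries lie between 45.1 and 83.3 CPM in cKO lenses and between 349 and 552 CPM in wild type lenses, the widest separation in the plot.

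Nrcam, the L1 family member needed for fibre order in the mouse lens, had the largest change of the 10. The gene lies on GRCm38 chromosome 12, 44328885 to 44601964, plus strand (ENSMUSG00000020598). Its level was 45.1, 60.9 and 83.3 CPM in cKO libraries 1, 2 and 3 and 349, 552 and 492 CPM in wild type libraries 1, 2 and 3. Every cKO library was far below every wild type library, and wild type library 1, which also had the lowest crystallin share of the wild type, was the lowest of its group. The mean was 63.1 ± 19.2 CPM in cKO lenses and 464 ± 104 CPM in wild type lenses (SD, n = 3 each), a log2 change of -2.89 (SE 0.251, edgeR adjusted p 0.000181). Among all tested features, 0.869% had a more negative log2 change. When each library was left out in turn, the log2 change lay between -3.14 and -2.69, and with library totals alone it was -2.53. The counts behind these levels were 1535, 729 and 826 in cKO lenses and 7233, 9636 and 8542 in wild type lenses.

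Nfasc, which encodes neurofascin, an ankyrin-binding molecule known from axon initial segments and nodes of Ranvier, fell as well. It lies on chromosome 1, 132564690 to 132741797, minus strand (ENSMUSG00000026442). Levels were 12.5, 13.53 and 16.9 CPM in cKO lenses and 23.1, 34.2 and 37.3 CPM in wild type lenses. The groups did not overlap, and wild type library 1 was again the lowest of its group. The log2 change was -1.15 (SE 0.199, edgeR adjusted p 0.00375), a 2.22-fold decrease, and it lay between -1.38 and -1.04 without 1 library at a time.

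The remaining L1 family members, which are best known from growing axons, were at low levels and not called. L1cam had 4.76, 5.01 and 7.26 CPM in cKO lenses and 6.33, 6.64 and 5.41 CPM in wild type lenses. The groups overlapped, and the log2 change was -0.13 (SE 0.215, edgeR adjusted p 0.667), or 0.22 with library totals alone. Chl1, the close homologue of L1, had 24, 8 and 23 counts in cKO lenses and 7, 8 and 9 counts in wild type lenses, which is 0.706, 0.668 and 2.32 CPM against 0.338, 0.458 and 0.518 CPM. Its cKO libraries all lay above the wild type libraries, with library 3 well above the other two, and the log2 change of 1.37 had an SE of 0.563 (edgeR adjusted p 0.0913). Chl1 was tested only because its cKO libraries reached the cutoff, so its values are a description. Per length, Nrcam held 80.8 ± 1.96% of the summed RPKM of the 4 L1 family genes in cKO lenses and 95.1 ± 0.411% in wild type lenses, and Nfasc held 10.1 ± 1.40% and 3.47 ± 0.355% (SD, n = 3 each). The smallest two-sided exact permutation p with 3 against 3 libraries is 0.10, so such shares are given as values.

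The summed markers of neurons, whose axons carry these molecules, overlapped between the groups. The 14 neuronal markers summed to between 198 and 231 CPM in cKO lenses and between 175 and 275 CPM in wild type lenses. None was at 0 in every library. Of the 14, 1 rose (7.14%, against 15.9% of all tested features) and 1 fell (7.14%, against 16.8%). Taken singly, 3 of the 14 had libraries that did not overlap, against 50.1% of all tested features. The part of neurons in the levels of the L1 family was not tested.

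Ncam1, the founding neural cell adhesion molecule, which is also made by lens cells, rose 1.51-fold. It lies on chromosome 9, 49502136 to 49798925, minus strand (ENSMUSG00000039542). Levels were 53.8, 68.6 and 84.4 CPM in cKO lenses and 45.2, 43.4 and 47.7 CPM in wild type lenses. The wild type libraries were close together and all below the cKO libraries, which were spread out with library 3 highest. The log2 change was 0.60 (SE 0.154, edgeR adjusted p 0.0202). The call depended on single libraries and did not hold without cKO library 2 (edgeR adjusted p 0.0518) or without wild type library 1 (0.0517), 2 (0.0973) or 3 (0.0617). Markers of neural retina were higher in cKO lenses too, with 5 of 11 tested members called higher and none lower by edgeR. Among all tested features 15.9% were called higher and 16.8% lower. The retinal sums were 2300, 2035 and 1602 CPM in cKO libraries 1, 2 and 3 and 1028, 728 and 760 CPM in wild type libraries. Within cKO lenses the retinal sum was lowest in library 3, where Ncam1 was highest, and the part of the retinal markers in the result was not tested. Exons of the opposite-strand gene Gm11149 cover 4.81% of the exon bases of Ncam1, and the labels give no strand setting.

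Ncam2, the paralogue known from olfactory axons, was near the limit of detection with 39, 5 and 22 counts in cKO lenses and 15, 9 and 11 counts in wild type lenses. The groups overlapped, cKO library 2 being the lowest of all, and Ncam2 was not called (log2 0.96, SE 0.526, edgeR adjusted p 0.188). Of the 2 enzymes that add polysialic acid to NCAM, St8sia4 rose by edgeR to 38.2 ± 2.27 CPM in cKO lenses, against 23.6 ± 7.42 CPM in wild type lenses (SD, n = 3 each, log2 0.69, adjusted p 0.0353). The call was lost in 5 of the 6 fits that left out a library. St8sia2 was not called (log2 0.43, edgeR adjusted p 0.186), with 16.3 ± 4.79 and 12.1 ± 2.29 CPM in cKO and wild type lenses.

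Alcam, an adhesion molecule of leukocytes, neurons and many epithelia that binds itself and Cd6, had the largest called increase of the 10. It lies on chromosome 16, 52248996 to 52454074, minus strand (ENSMUSG00000022636). Levels were 40.6, 26.6 and 62.0 CPM in cKO lenses and 22.2, 13.1 and 22.9 CPM in wild type lenses. The groups did not overlap, but cKO library 2 lay close to the highest wild type libraries. The log2 change was 1.14 (SE 0.310, edgeR adjusted p 0.0237), a 2.21-fold increase, and the call was lost without cKO library 3 (log2 0.81, edgeR adjusted p 0.0563) or wild type library 2 (log2 0.90, edgeR adjusted p 0.095).

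Markers of periocular mesenchyme, pigment cells, surface ectoderm, and glia and neural crest followed Alcam in the order of the cKO libraries. The glia and neural crest sum was 19.4, 11.7 and 20.98 CPM in cKO libraries 1, 2 and 3. It was 15.4, 12.1 and 16.8 CPM in wild type libraries 1, 2 and 3, also the order of Alcam. The groups overlapped for this sum. Neural retina markers did not follow Alcam: their sum was lowest in cKO library 3, at 1602 CPM. The sum for blood vessel endothelium was lowest in cKO library 1, at 348 CPM. The 10 markers of periocular mesenchyme, of which Foxc2 was at 0 in every library, summed to 1205, 806 and 3624 CPM in cKO libraries 1, 2 and 3 and to 634, 308 and 585 CPM in wild type libraries. The 8 pigment cell markers summed to 382, 280 and 768 CPM in cKO lenses and to 206, 90.2 and 183 CPM in wild type lenses. The highest and lowest library of each group was thus the same for the pigment markers, the mesenchyme markers and, within cKO lenses, Alcam, and wild type library 2 was lowest in all 3. Surface ectoderm markers summed to 43.3, 18.3 and 94.8 CPM in cKO lenses and 13.4, 3.32 and 11.3 CPM in wild type lenses, the same order of libraries as the mesenchyme markers, with Krt4 and Krt13 too low to test. Krt14 passed the filter only through its cKO libraries. Of the other tested markers, 3 of 3 ectodermal, 5 of 9 mesenchymal and 6 of 8 pigment genes were called higher by edgeR. For glia and neural crest it was 1 of 4, and none in these lists was called lower. Among all tested features 15.9% were called higher and 16.8% lower. The part of these tissues in the increase of Alcam was not tested.

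**Figure D2:**
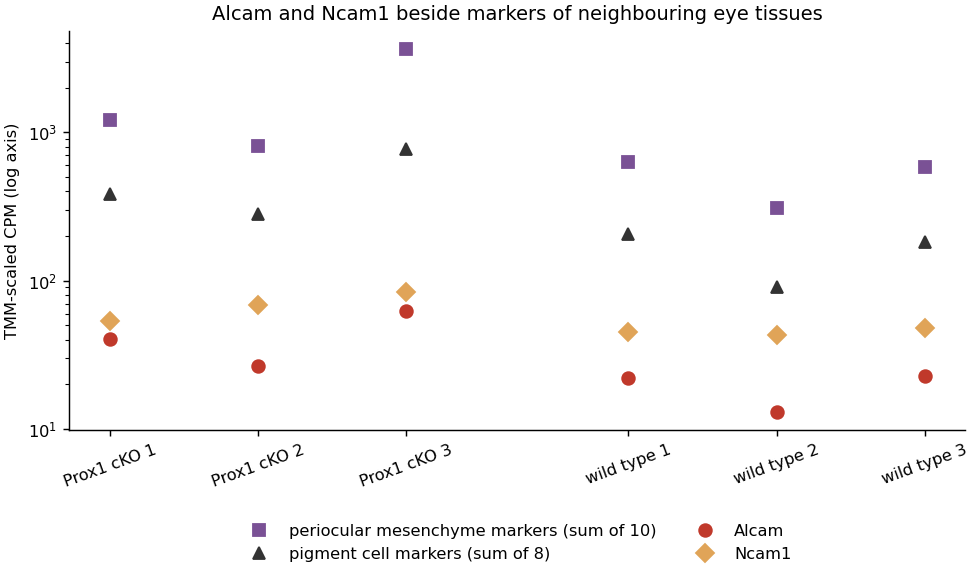
TMM-scaled CPM on a log axis in each library for Alcam, Ncam1 and the summed markers of periocular mesenchyme and pigment cells, with Prox1 cKO libraries left of wild type libraries. The cKO library 3 is highest in all 4 series, at 62.0 CPM for Alcam and 3624 CPM for the mesenchymal sum.

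Jam3, which encodes the junctional adhesion molecule JAM-C, had a small decrease that depended on the scaling. It lies on chromosome 9, 27097384 to 27155421, minus strand (ENSMUSG00000031990). Levels were 178, 159 and 140 CPM in cKO lenses and 184, 215 and 216 CPM in wild type lenses. The groups did not overlap, with cKO library 1 close below wild type library 1. The log2 change was -0.36 (SE 0.117, edgeR adjusted p 0.0431). In the CPM deposited by the authors, which use library totals alone, the means were 180.1 ± 30.2 in cKO lenses and 181 ± 0.604 in wild type lenses (SD, n = 3 each), and the log2 change on that scale was 0.00 (edgeR adjusted p 0.992). The call was also lost with upper quartile scaling (adjusted p 0.0607), with the replicate number as a block (0.0762), and without cKO library 2 (0.105) or 3 (0.109) or wild type library 2 (0.128) or 3 (0.13), all by edgeR. Exons of Gm48796 on the opposite strand, which was not analysed here, cover 36.2% of the exon bases of Jam3.

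Cadm1, a nectin-like molecule of lens fibre membranes, was not called. It lies on chromosome 9, 47530173 to 47857637, plus strand (ENSMUSG00000032076). Levels were 505, 569 and 494 CPM in cKO lenses and 561, 718 and 717 CPM in wild type lenses. The cKO library 2 lay above wild type library 1, so the groups overlapped. The log2 change was -0.35 (SE 0.131, edgeR adjusted p 0.0717). It was called without wild type library 1 (log2 -0.50, edgeR adjusted p 0.0133) and by DESeq2 (log2 -0.37, adjusted p 0.0272), while with library totals alone the log2 change was 0.01 (edgeR adjusted p 0.941).

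Cadm2, the paralogue best known from neurons, rose 1.83-fold. It lies on chromosome 16, 66655421 to 67620908, minus strand (ENSMUSG00000064115). It had 238, 62 and 56 counts in cKO lenses and 77, 45 and 61 counts in wild type lenses, which is 6.997, 5.18 and 5.65 CPM against 3.72, 2.58 and 3.51 CPM. The groups did not overlap. The log2 change was 0.87 (SE 0.223, edgeR adjusted p 0.0195), and the call did not hold without cKO library 1 (edgeR adjusted p 0.0612) or wild type library 2 (0.088) or 3 (0.0562). Their relatives Cadm3 and Cadm4 were added after their values were seen. By edgeR Cadm4 rose to 19.998 ± 1.73 CPM in cKO lenses, against 12.7 ± 2.14 CPM in wild type lenses (SD, n = 3 each, log2 0.66, adjusted p 0.0145), which was not called without wild type library 2 or 3. Cadm3 was not called, with 7.04 ± 0.464 CPM in cKO lenses, against 6.34 ± 1.23 CPM in wild type lenses (log2 0.15, edgeR adjusted p 0.584).

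**Figure D3:**
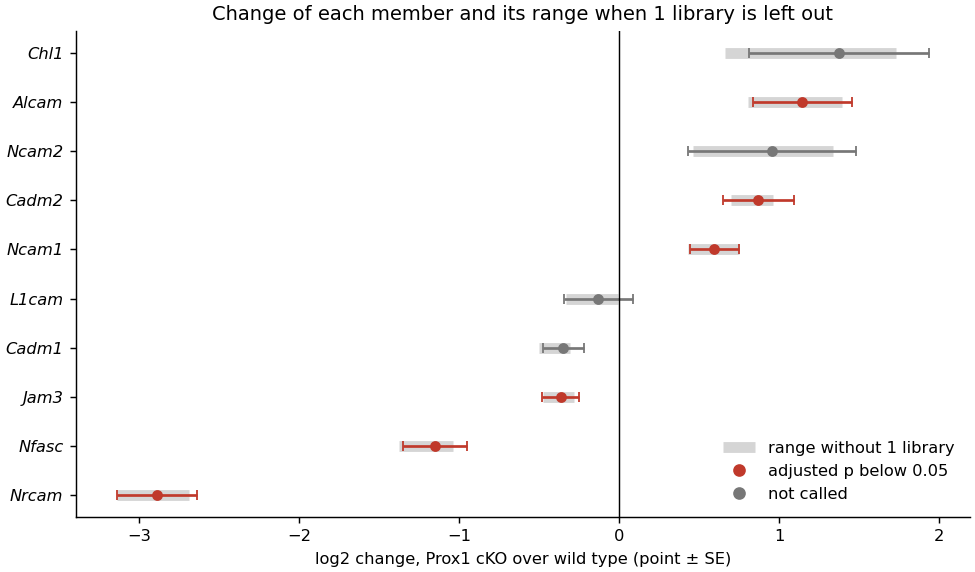
Log2 change of each adhesion gene, Prox1 cKO over wild type, as a point with its SE from edgeR, over a grey bar that spans the values when 1 library is left out. Nrcam stands at -2.89 with a bar from -3.14 to -2.69, while the bar of L1cam reaches -0.01 and those of Chl1 and Ncam2 are the widest.

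Levels of different genes were compared per length with the RPKM made by the authors. In cKO lenses the order of mean RPKM was Jam3, Cadm1, Ncam1, Nrcam, Alcam, Nfasc, L1cam, Cadm2, Ncam2 and Chl1, with 70.9 ± 11.9 RPKM for Jam3, 60.9 ± 4.63 for Cadm1, 19.8 ± 3.58 for Ncam1 and 9.31 ± 2.47 for Nrcam (SD, n = 3). In wild type lenses Nrcam stood behind Jam3 and Cadm1, with 53.6 ± 8.02 RPKM, against 71.1 ± 0.238 for Jam3 and 60.4 ± 3.02 for Cadm1, and ahead of Ncam1 with 10.3 ± 1.01. From Alcam to Chl1 the order was the same in both groups. With GENCODE exon lengths the order in cKO lenses changed: Cadm1 (56.5 ± 4.29 RPKM) came before Jam3 (56.3 ± 9.45), and Alcam (6.82 ± 2.70) before Nrcam (5.29 ± 1.40), while that in wild type lenses stayed the same. With the deposited lengths, ranges of neighbouring genes overlapped in cKO lenses for Jam3 and Cadm1, Nrcam and Alcam, Nfasc and L1cam, L1cam and Cadm2, and Ncam2 and Chl1. In wild type lenses they overlapped for Cadm1 and Nrcam and for Alcam and Nfasc.

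Nrcam made up 3.97%, 5.24% and 7.28% of the summed RPKM of the 10 genes in cKO libraries, against 23.7%, 29.3% and 26.7% in wild type libraries. Within each library such a share does not depend on the library scaling. Jam3 held 41.4 ± 5.03% in cKO lenses and 35.4 ± 1.68% in wild type lenses, and Cadm1 held 35.6 ± 2.42% and 30.0 ± 0.347% (SD, n = 3 each). Ncam1 held 11.7 ± 2.58% in cKO lenses and 5.16 ± 0.75% in wild type lenses. The lengths implied by the deposited RPKM equal the annotated exon bases of GENCODE M21 for Nfasc, L1cam, Alcam and Cadm2, while the annotation is 1.76 times longer for Nrcam, 2.22 times for Ncam1 and 1.26 times for Jam3, so the shares shift with the length used.

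**Figure D4:**
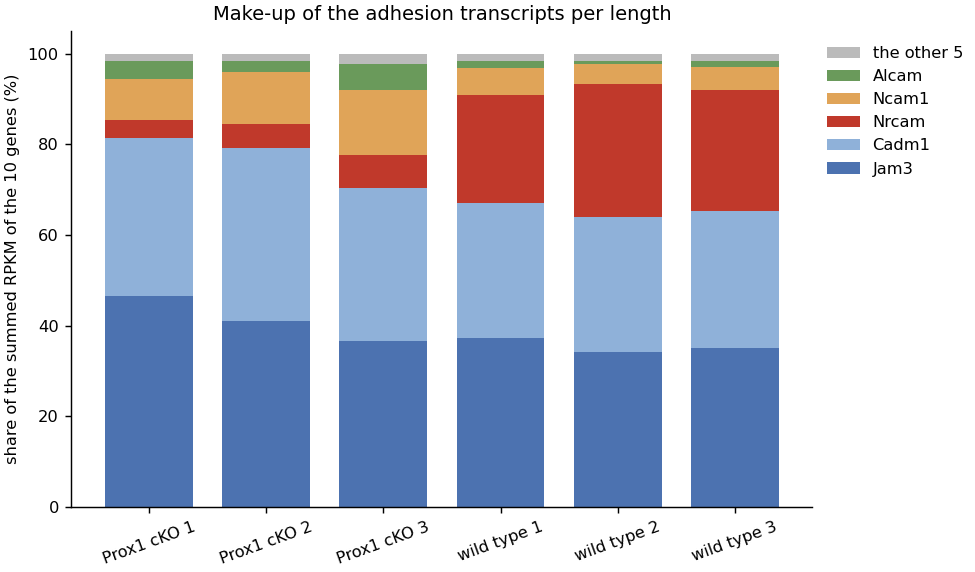
Share of the summed RPKM of the 10 adhesion genes held by Jam3, Cadm1, Nrcam, Ncam1, Alcam and the other 5, as stacked bars for each library, Prox1 cKO libraries on the left. The Nrcam part is 3.97% to 7.28% in cKO lenses and 23.7% to 29.3% in wild type lenses.

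Partners of these molecules inside and beside the membrane moved in both directions. Of 43 listed partners 42 were tested, and Gdnf passed the filter only through its cKO libraries. Of the other 41, 8 rose (19.5%, against 15.9% of all tested features), 13 fell (31.7%, against 16.8%) and 20 were not called, with a median log2 change of 0.04, equal to that of all tested features at this precision. The partners were listed with earlier results of these data known, so these shares are a description. Gdnf, which encodes a ligand of Gfra1, had 34, 18 and 9 counts in cKO lenses and 7, 1 and 2 counts in wild type lenses. Leaving out wild type library 2 gave 2 higher and 10 lower calls, leaving out wild type library 3 gave 3 higher and 11 lower, and leaving out cKO library 2 or 3 gave 4 higher, with Gdnf counted among the higher ones each time. Ank2, which encodes ankyrin B, the L1 family adaptor of lens fibres, fell 2.04-fold to 676 ± 131 CPM in cKO lenses, against 1381 ± 184 CPM in wild type lenses (SD, n = 3 each, edgeR adjusted p 0.00332). The other ankyrin genes, Ank3 for ankyrin G and Ank1 for ankyrin R, were named once their values were known. Ank3 was not called, with 203 ± 39.0 CPM in cKO lenses and 192 ± 15.5 CPM in wild type lenses (log2 0.08, edgeR adjusted p 0.71). With library totals alone Ank3 was called higher (log2 0.42, edgeR adjusted p 0.0278). Ank1 was not called at 1.70 ± 0.616 CPM in cKO lenses, against 1.57 ± 0.277 CPM in wild type lenses (log2 0.05, edgeR adjusted p 0.932), and its sign changed between fits. The spectrin genes to which ankyrins link, Sptbn1 and Sptan1, fell 3.65-fold and 2.74-fold by edgeR.

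Scaffolds and adaptors of the other families fell as well. Lin7a, a PDZ scaffold gene, fell 5.79-fold to 21.7 ± 2.99 CPM in cKO lenses, against 125 ± 27.0 CPM in wild type lenses (SD, n = 3 each, edgeR adjusted p 0.000104). Tjp1, which encodes ZO-1, a scaffold that binds JAM tails, fell 2.45-fold to 300.5 ± 40.9 CPM in cKO lenses, against 736 ± 119 CPM in wild type lenses (edgeR adjusted p 0.000717). Epb4.1l3, whose product 4.1B binds CADM tails, fell 2.07-fold, and Adam10, a protease that sheds several of these molecules, fell 2.05-fold. Gfra1, a receptor of GDNF that also pairs with NCAM, rose 1.92-fold to 17.2 ± 4.53 CPM in cKO lenses, against 8.88 ± 1.09 CPM in wild type lenses (edgeR adjusted p 0.0103). Each of the 8 called partners named here, Ank2 to Gfra1, which reached a mean of 10 CPM in the higher group, kept its call whichever library was left out.

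Beyond the 10, a list of 68 other immunoglobulin-type adhesion genes had 57 tested members, of which 19 rose (33.3%, against 15.9% of all tested features), 7 fell (12.3%, against 16.8%) and 31 were not called, and a median log2 change of 0.39 against 0.04 for all tested features. This list was chosen with earlier results of these data known, so its shares are a description. With library totals alone 36 of its genes rose and 1 fell, against 5423 and 945 of all tested features. Leaving out wild type library 2 gave 8 higher and 2 lower calls, wild type library 3 gave 8 higher and 3 lower, cKO library 3 gave 12 higher, and cKO library 2 gave 4 lower. Jam2, which encodes JAM-B, a binding partner of the Jam3 product, rose 3.45-fold with a narrow spread, to 51.4 ± 4.44 CPM in cKO lenses, against 14.9 ± 0.53 CPM in wild type lenses (SD, n = 3 each, edgeR adjusted p 5.06e-05). Cntn4, a contactin gene of axons, rose 5.15-fold to 14.6 ± 1.98 CPM in cKO lenses, against 2.83 ± 0.0821 CPM in wild type lenses (edgeR adjusted p 0.000111). Lsamp, a gene of the IgLON group of lipid-anchored neural molecules, fell 5.18-fold to 16.7 ± 7.02 CPM in cKO lenses, against 84.2 ± 18.5 CPM in wild type lenses (edgeR adjusted p 0.000779).

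Igsf3 rose 3.27-fold to 145 ± 30.9 CPM in cKO lenses, against 44.3 ± 3.33 CPM in wild type lenses (edgeR adjusted p 0.00023). Clmp, a junction molecule of epithelia, rose 2.56-fold, Mxra8 rose 2.39-fold and Boc, a co-receptor of Hedgehog ligands, rose 2.29-fold by edgeR. Vcam1, an integrin ligand of endothelium, rose 3.08-fold to 17.1 ± 9.74 CPM in cKO lenses, against 5.47 ± 2.76 CPM in wild type lenses (edgeR adjusted p 0.0346), and the call did not hold when cKO library 1, cKO library 3, wild type library 2 or wild type library 3 was left out. Jam2, Cntn4, Lsamp, Igsf3, Clmp, Mxra8 and Boc kept their calls whichever library was left out. Under 10 CPM, and named after their values were seen, Dscaml1 rose 2.54-fold (edgeR adjusted p 0.0111) and Opcml 2.38-fold (edgeR adjusted p 0.0209). The call of Dscaml1 did not hold when wild type library 3 was left out, nor did that of Opcml when cKO library 3, wild type library 2 or wild type library 3 was. The list holds genes of vessels and mesenchyme. The 8 endothelial markers summed to between 348 and 461 CPM in cKO lenses and between 228 and 400 CPM in wild type lenses. Of these 8 markers 1 was called higher (12.5%, against 15.9% of all tested features). Jam3 and Jam2 thus changed in opposite directions with TMM scaling, and F11r, the remaining JAM gene, was not called (log2 0.56, edgeR adjusted p 0.0726) except with library totals alone (0.0153) or without wild type library 1 (0.0193).

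**Figure D5:**
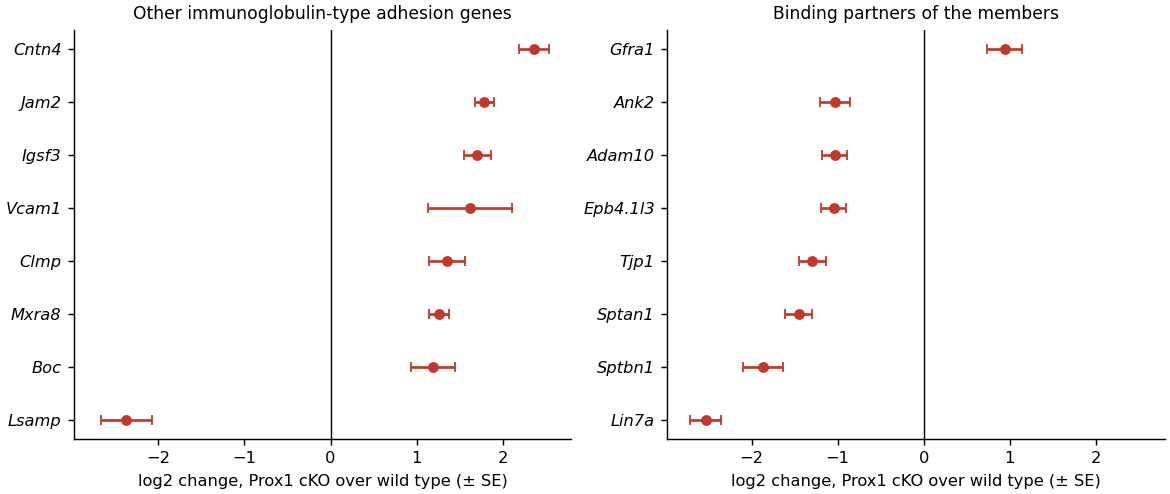
Log2 change with its SE from edgeR, Prox1 cKO over wild type, for the 8 genes of largest called change without overlap whose higher group averaged 10 CPM or more, among other immunoglobulin-type adhesion genes on the left and binding partners on the right. Gdnf, Dscaml1 and Opcml lie below 10 CPM and are not drawn. On the left 7 of 8 are above 0 with Lsamp at -2.37, and on the right 7 of 8 are below 0 with Gfra1 at 0.94.

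The genes whose level across the 6 libraries was most like that of Nrcam were found by the root mean square difference of log2 CPM centred on each gene, among 9485 features with a mean of at least 10 CPM. They were Lgi2, which encodes a secreted leucine-rich repeat protein (difference 0.0673), Nol3, which encodes a repressor of apoptosis (0.128), and Capn3, which encodes a calpain protease of lens fibres (0.131), all on the log2 scale. Lgi2 had 8.14, 11.3 and 15.5 CPM in cKO lenses and 61.2, 97.3 and 99.2 CPM in wild type lenses. For Alcam they were Ahr, the aryl hydrocarbon receptor gene (0.119), Gm13225 (0.151) and the amino acid transporter gene Slc6a15 (0.172). Ahr had 13.6, 10.4 and 22.3 CPM in cKO lenses and 8.84, 4.07 and 8.29 CPM in wild type lenses, so that its cKO library 2 was near 2 of the wild type libraries, as was that of Alcam.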

How the data were processed

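Each deposited table lists, per the file headers, RPKM, CPM and the raw count for 41128 features of 1 library. The raw counts deposited are whole numbers. The CPM made by the authors equals the count scaled by the library total alone, and the RPKM made by the authors equals that CPM divided by 1 length per feature. The kit selects polyadenylated RNA, the reads were single-end, and no strand setting is given, per the labels. The submitters' processing notes name edgeR and the build GRCm38, and the aligner and counting program are not stated in the labels. Left out were 26 features whose count and CPM disagreed beyond a tolerance of 1e-06.

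Raw counts were tested in R 4.3.3 with edgeR 4.0.16 (filterByExpr with a minimum count of 10, TMM, quasi-likelihood test, group as the only term, all 6 libraries), tested first on simulated data. SE is the log2 change divided by the square root of the F statistic. Alternatives were other scalings and filters, DESeq2 1.42.0, limma-voom (limma 3.58.1), a replicate block and leaving out each library. Library totals alone, counts without Lars2, and GENCODE lengths were added after seeing the data. The members and lists were chosen with earlier results of these data known. Named are the 10 members and, per list, up to 8 genes of largest change that were called, did not overlap and reached a mean of 10 CPM in the higher group. Ank1, Ank3, Cadm3, Cadm4, Dscaml1, F11r, Gdnf, Opcml, St8sia2 and St8sia4 were chosen after their values were seen. A count of 3 corresponds to between 0.106 and 0.33 CPM of the deposited scale and covers counting error only.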

Additional observations from a re-analysis of the deposited data

How the results depend on the processing

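With library totals alone, 5423 of all tested features were called higher and 945 lower, against 2263 and 2396 with TMM; 36 of the other adhesion genes were called higher and 1 lower, and 19 partners higher. On that scale the log2 change of L1cam was 0.22 and that of Cadm1 0.013, opposite in sign to the TMM values and not called. Without 1 library at a time, members called numbered 0 to 2 higher and 2 to 4 lower, other adhesion genes 8 to 25 higher and 2 to 9 lower, partners 2 to 8 higher and 10 to 13 lower, and all tested features 836 to 2400 higher and 1431 to 2917 lower. Genes that were not called changed sign in some of these fits: Ank3 lay between -0.040 and 0.22 (log2, with -0.020 when wild type library 1 was left out), Ank1 between -0.20 and 0.38 (with -0.084, -0.058 and -0.031 in other fits, and -0.15 by limma-voom), and Cadm3 between -0.022 and 0.24. With the replicate number as a block, 3 members were called higher and 2 lower, the lost call being that of Jam3. Same-numbered libraries deviated from their group means with correlations across genes of -0.03, 0.25 and 0.11. Those of differently numbered libraries lay between -0.22 and 0.088. These values cannot settle whether the numbers pair the samples, and the labels name no pairing.

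Shares of the members' summed RPKM depend on length. With CPM in place of RPKM, the cKO and wild type shares of Cadm1 were 59.1% and 46.2%, Jam3 18.0% and 14.3%, Ncam1 7.76% and 3.20%, and Nrcam 32.0% in the wild type. With GENCODE exon lengths those of Cadm1 were 41.3% and 36.6%, Ncam1 6.59% and 3.05%, and Nrcam 19.8% in the wild type. Without 1 library, Nrcam held 4.605% to 6.26% in cKO libraries and 25.2% to 28.0% in wild type libraries, Cadm1 34.3% to 36.6% and 29.8% to 30.2%, Jam3 38.7% to 43.8% and 34.5% to 36.1%, and Ncam1 10.3% to 12.9% and 4.76% to 5.50%. The cause of these dependences was not tested. Chl1 and Ncam2 had 39 counts or fewer in every library.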

Other observations

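Marker lists of further cell types gave the following sums of TMM-scaled CPM beside the adhesion genes. For their counts of called genes, the shares among all tested features were 15.9% higher and 16.8% lower. Erythroid markers summed to between 1376 and 2220 CPM in cKO libraries and between 755 and 2554 CPM in wild type libraries, with 3 of 8 called higher by edgeR. Macrophage markers summed to between 69.9 and 95.0 CPM in cKO libraries and between 38.8 and 83.1 CPM in wild type libraries, and none of 8 was called. Glial and neural crest markers summed to between 11.7 and 20.98 CPM in cKO libraries and between 12.1 and 16.8 CPM in wild type libraries, with 1 of 4 tested called higher. Skeletal muscle markers summed to between 3.47 and 39.9 CPM in cKO libraries and between 4.59 and 21.6 CPM in wild type libraries, and none of 4 tested was called.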
